A study of Homo sapiens with 8 samples.

Results

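The genes described here are NLRC5 and the 9 genes of the peptide loading machinery of MHC class I: TAP1, TAP2, TAPBP, TAPBPL, ERAP1, ERAP2, CALR, CANX and PDIA3. Their probe sets were taken by name, as every probe set that the platform's annotation assigns to 1 of these genes. The genes themselves were chosen with earlier results of these data known, so counts among them are not those of a blindly chosen set. This gave 36 probe sets for 10 of the 18132 genes on the array, and 0 further probe sets named a member together with another gene. All 10 genes were among the 11529 genes compared, and the brightest probe set of each lay above the background range on all 8 arrays. The study measured RNA of KBM7, a near-haploid chronic myeloid leukaemia cell line, on 1-colour Affymetrix arrays. Wild-type (WT) cells and gene-trap JAK2 mutant cells were left unstimulated or stimulated over 6 hours with 100 ng/ml IFN-gamma. WT cells and gene-trap TNFRSF1A mutant cells, which lack the TNF-alpha receptor TNFR1 per the labels, were left unstimulated or stimulated over 6 hours with 10 ng/ml TNF-alpha. Unstimulated WT had 2 arrays: replicate 1 served as the IFN-gamma control and replicate 2 as the TNF-alpha control. A single array stood for each of the 6 remaining conditions. The labels do not say how many clones stood behind each mutant or whether the arrays came from separate cultures.

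MHC class I molecules show peptides of the cell's own proteins to CD8 T cells. Peptides cut by the proteasome are carried into the endoplasmic reticulum by the TAP1-TAP2 transporter and trimmed there by the aminopeptidases ERAP1 and ERAP2. New heavy chains fold with the lectin chaperones calnexin (CANX) and calreticulin (CALR) and are then held at the transporter by tapasin (TAPBP) and the disulfide isomerase ERp57 (PDIA3), while the tapasin relative TAPBPR (TAPBPL) edits peptides away from it. NLRC5 is a transactivator that acts at the promoters of class I genes, and IFN-gamma acts through the kinases JAK1 and JAK2 and the transcription factor IRF1 to raise many genes of this pathway.

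With 1 array a condition, each value below is the log2 difference of 2 arrays, and a gene is said to rise or fall only from 2-fold, a log2 difference of 1, without a p-value. The spread against which a difference is read is the SD of the difference between the 2 unstimulated WT arrays over the compared genes, 0.38. These 2 arrays served different experiments, and the cytokine responses, each within 1 experiment, varied less over the compared genes. Their SD was 0.22 for IFN-gamma and 0.20 for TNF-alpha in WT, 0.15 in the JAK2 mutant and 0.12 in the TNFRSF1A mutant. A response within 0.38 can therefore still be among the most extreme of all genes. Values below the upper quartile of the array's background probe sets, which was a log2 of 5.76 to 6.04, lie in what is called the background range. Median intensities ran from 63.9 to 66.9 per array. The JAK2 probe set gave intensities of 33.8 and 40.1 on the 2 JAK2 mutant arrays and 70.8 to 113 on the other arrays. Both mutant values lay in the background range. The unstimulated log2 difference from WT replicate 1 is therefore known only to be -0.41 or lower. The TNFRSF1A probe set gave 94.5 and 93.9 on the 2 TNFRSF1A mutant arrays and 601 to 907 elsewhere. Of 7 markers of myeloid and leukaemic progenitors, PTPRC, KIT, CD34 and MYB lay above the background range on all arrays, MPO on 7, and SPI1 and CD38 on none. Markers of other blood cells did so on all arrays for 1 of 4 T cell (CD3D, at a log2 of 8.71 to 10.03), 1 of 3 B cell (CD79A), 3 of 3 NK cell, 1 of 2 erythroid (HBB), 2 of 3 megakaryocyte and 3 of 4 monocyte genes (LYZ, CD68 and CSF1R, without CD14), while CD3E, CD2, CD5 and MS4A1 did so on none. For fibroblasts the count was 0 of 3 and for epithelium 0 of 3. In such bulk samples a change in the share of cells and a change in RNA per cell cannot be told apart.

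IFN-gamma raised 5 of the 10 genes in WT cells: the transactivator NLRC5 by 2.88, the transporter gene TAP1 by 2.65, the peptidase gene ERAP2 by 1.58, the other transporter subunit TAP2 by 1.11 and the editor TAPBPL by 1.04. The other 5 did not pass 2-fold, with 0.38 for ERAP1, 0.15 for TAPBP, -0.03 for PDIA3, -0.04 for CANX and -0.30 for CALR. Thus the lectin chaperones and the disulfide isomerase, which serve the folding of glycoproteins in general, had values within the spread, as did tapasin. Over all compared genes, 0.607% rose 2-fold and 0% fell. The median of the 10 genes was 0.71, against -0.02 over all genes. Ordered by size among the 11529 genes, NLRC5 stood at place 8, TAP1 at 11, ERAP2 at 29, TAP2 at 56 and TAPBPL at 66.

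**Figure D1:**
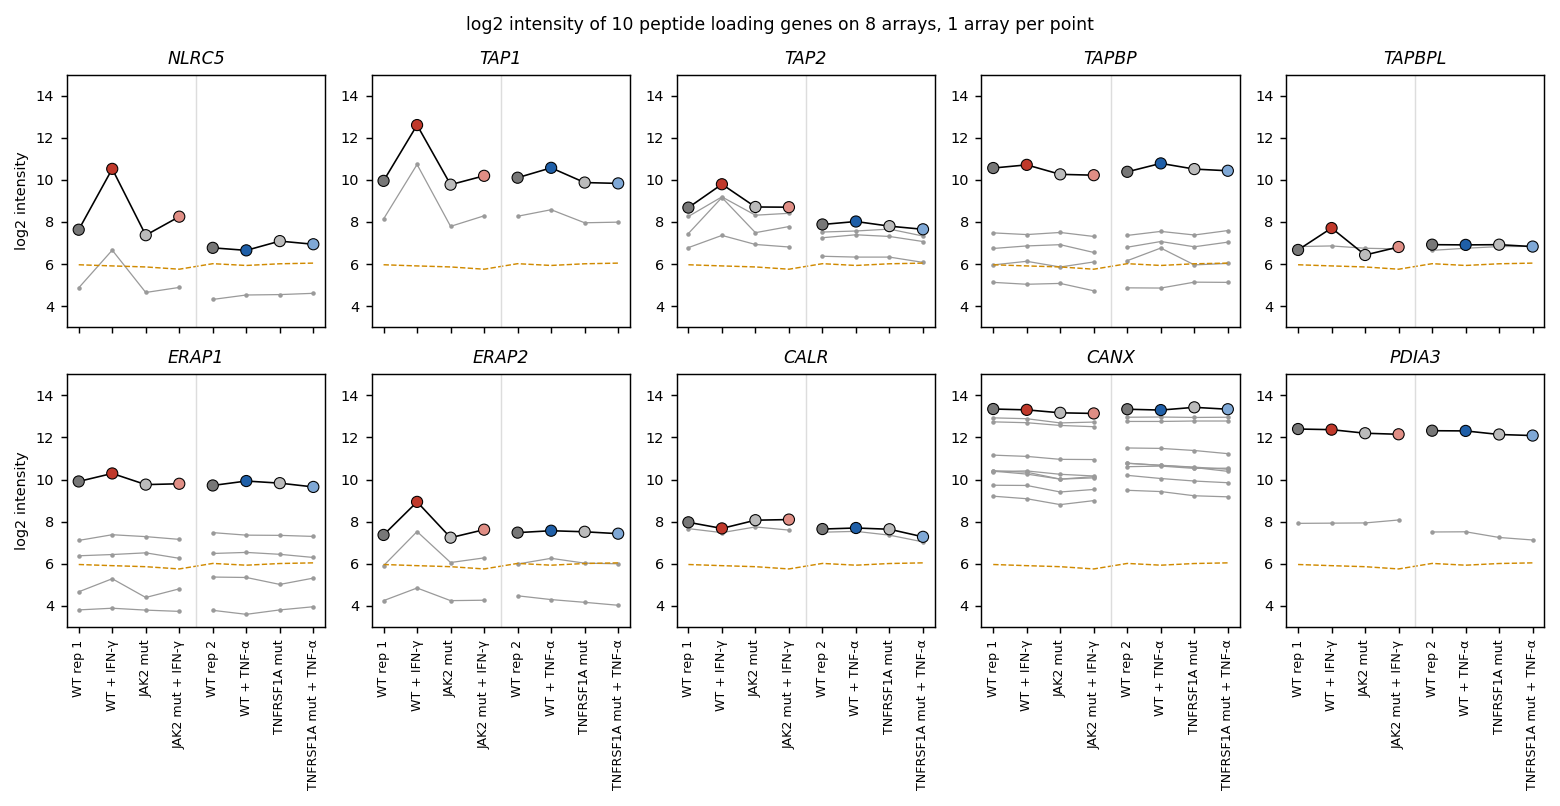
log2 intensity (vertical axis) of each of the 10 genes on the 8 arrays (horizontal axis), 1 array per point, with the IFN-gamma experiment on the left of each panel and the TNF-alpha experiment on the right. Large points are the brightest probe set of a gene, grey lines its other probe sets and the dashed line the upper edge of the background range. NLRC5, TAP1, TAP2, TAPBPL and ERAP2 have their highest point in WT under IFN-gamma, while the large points of CANX and PDIA3 stay nearly level.

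Promoters are shown for members with a half-site pair or a stress response element, as defined below. Among them are genes that rose with IFN-gamma and genes that did not. The NF-kappaB matches of TAPBPL and ERAP1 are not printed. The RefSeq promoter table (GRCh38.p14) held 15 starts for 8 of the 10 genes, all but NLRC5 and PDIA3, and the 250 bases before each start were searched on both strands. The motifs were a pair of interferon regulatory factor half-sites (GAAA, any 2 bases, GAAA), the NF-kappaB consensus, and the endoplasmic reticulum stress response element (CCAAT, any 9 bases, CCACG), which holds a CCAAT box; that box (CCAAT) was also searched alone and is not set in capitals. On the opposite strand the half-sites read TTTC, as in TAP1, and neighbouring pairs may overlap. Capitals mark these motifs in the sequences below, each written 5′ to 3′ on the gene's strand.
TAP1, chr6:32853705-32853954, minus strand: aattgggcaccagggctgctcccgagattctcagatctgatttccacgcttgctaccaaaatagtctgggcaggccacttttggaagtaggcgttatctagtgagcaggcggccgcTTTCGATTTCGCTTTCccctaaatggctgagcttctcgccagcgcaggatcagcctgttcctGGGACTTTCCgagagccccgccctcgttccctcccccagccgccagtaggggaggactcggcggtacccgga
TAP2, chr6:32838740-32838989, minus strand: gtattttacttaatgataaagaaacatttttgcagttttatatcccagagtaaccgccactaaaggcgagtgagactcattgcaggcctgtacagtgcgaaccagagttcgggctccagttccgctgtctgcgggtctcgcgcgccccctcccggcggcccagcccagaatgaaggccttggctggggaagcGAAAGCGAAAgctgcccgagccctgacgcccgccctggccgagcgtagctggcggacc
TAPBP, chr6:33314079-33314328, minus strand: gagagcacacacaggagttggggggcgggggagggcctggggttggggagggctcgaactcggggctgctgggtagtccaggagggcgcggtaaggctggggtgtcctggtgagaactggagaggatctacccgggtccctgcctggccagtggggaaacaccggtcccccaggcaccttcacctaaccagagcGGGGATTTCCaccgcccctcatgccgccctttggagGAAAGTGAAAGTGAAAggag
ERAP2, second start, chr5:96876460-96876489, plus strand: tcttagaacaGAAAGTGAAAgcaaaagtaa
CALR, chr19:12938359-12938608, plus strand: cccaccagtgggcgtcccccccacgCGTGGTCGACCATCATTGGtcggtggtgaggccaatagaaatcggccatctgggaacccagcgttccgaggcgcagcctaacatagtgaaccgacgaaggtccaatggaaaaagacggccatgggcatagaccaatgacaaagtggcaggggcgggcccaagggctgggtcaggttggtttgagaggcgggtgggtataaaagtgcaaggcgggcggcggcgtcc
CANX, chr5:179698773-179698802, plus strand: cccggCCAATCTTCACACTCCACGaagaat

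Half-site pairs were found before starts of 4 of the 8 genes, TAP1, TAP2, TAPBP and ERAP2. Counted by window, this was 4 of the 15 member windows, against 3.02% of the 35116 windows of the whole table. In TAP1 they formed an overlapping run that ended 119 bases before the start, in TAP2 a single copy ended 49 bases before it, and in TAPBP an overlapping run ended 5 bases before it. Of these 4 genes TAP1, TAP2 and ERAP2 rose with IFN-gamma, and TAPBP did not. TAPBPL, which rose on its brightest probe set, had no half-site pair before its starts. The stress response element was found at 2 of the 8 genes, CALR and CANX, and in 0.074% of all windows. It was in 3 of the 15 member windows, with the same CANX copy counted more than once. CALR and CANX had values within the spread with either cytokine in WT cells. The NF-kappaB consensus occurred at 4 genes, TAP1, TAPBP, TAPBPL and ERAP1, in 4 of the 15 member windows and in 5.21% of all windows. The CCAAT box alone was found at 4 genes, TAP1, ERAP1, CALR and CANX. It was in 6 of the 15 member windows, again with the CANX copy counted more than once, and in 32% of all windows. A match is only a string of letters in the reference and no measure of binding in these cells.

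NLRC5 read an intensity of 199 in WT replicate 1, 1464 in WT under IFN-gamma, 166 in the unstimulated JAK2 mutant and 303 in that mutant with IFN-gamma. On the arrays of the TNF-alpha experiment it read 109 in WT replicate 2, 101 in WT with TNF-alpha, 136 in the unstimulated TNFRSF1A mutant and 123 in that mutant with TNF-alpha. WT with IFN-gamma thus stood 2.27 above the next array, the stimulated JAK2 mutant, while the other 7 arrays spanned 1.59. The rise was 7.37-fold against replicate 1 and 13.4-fold against replicate 2, a control with which 1.66% of all genes rose and 0.694% fell. The second NLRC5 probe set rose by 1.79, from 29.2 to 101, but its unstimulated value lay in the background range, so that this rise is known only to be at least 0.69.

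TAP1 gave 987 in WT replicate 1 and 6206 in WT under IFN-gamma, and 875 and 1170.1 in the JAK2 mutant without and with IFN-gamma. In the TNF-alpha experiment it gave 1096 in WT replicate 2, 1521 with TNF-alpha, and 936 and 908 in the TNFRSF1A mutant without and with TNF-alpha. The single high array was again WT under IFN-gamma, 2.03 above the next, and the other 7 arrays spanned 0.80. Its fold was 6.29 against replicate 1 and 5.66 against replicate 2. The other TAP1 probe set, read from 283 to 1699.8, rose by 2.59, so that both probe sets gave nearly the same size.

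TAP2 depended more on the probe set and on the control. Its brightest probe set read 411 in WT replicate 1, 887 in WT under IFN-gamma, and 417 and 416 in the JAK2 mutant without and with IFN-gamma. In the TNF-alpha experiment the same probe set read 236 in WT replicate 2, 260.3 with TNF-alpha, and 223 and 201 in the TNFRSF1A mutant without and with TNF-alpha. All 4 arrays of the IFN-gamma experiment thus lay above all 4 arrays of the TNF-alpha experiment. Of the 4 TAP2 probe sets, 2 rose with IFN-gamma, by 1.11 and 1.70, and the other 2 had 0.93 and 0.58. Against WT replicate 2 the brightest rose by 1.91.

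ERAP2, the aminopeptidase that works beside ERAP1, read 165 in WT replicate 1 and 492 in WT under IFN-gamma, and 151 and 197 in the JAK2 mutant without and with IFN-gamma. In the TNF-alpha experiment it stayed between 173 and 189.6. The other 7 arrays spanned only 0.38, and WT with IFN-gamma stood 1.32 above the highest of them. Of its 3 probe sets, a second rose by 1.62 (at least 1.57 by the background range) and the third lay in the background range on all arrays. ERAP1, its partner, had 5 probe sets, of which the 3 that lay above the background range on all arrays had values of 0.38, 0.27 and 0.07. The brightest ERAP1 probe set went from 959.8 to 1249 with IFN-gamma and stood between 806 and 974 on the other 6 arrays. Its value of 0.38 is about the size of the spread, but it stood at place 345 of the 11529 genes.

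TAPBPL, the tapasin relative, passed the rule narrowly. It read 102 in WT replicate 1, 210.0 in WT under IFN-gamma, and 86.1 and 112 in the JAK2 mutant without and with IFN-gamma. In the TNF-alpha experiment the 4 arrays read 121 in WT replicate 2, 120.5 with TNF-alpha, and 121 and 114 in the TNFRSF1A mutant without and with TNF-alpha. Against WT replicate 2 its value was 0.79, below 2-fold. The other TAPBPL probe set, nearly as bright, gave 114 and 116 without and with IFN-gamma in WT, a value of 0.03, so the 2 probe sets disagree on whether TAPBPL rose. The positions of the probe sets in the transcripts were not analysed here.

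**Figure D2:**
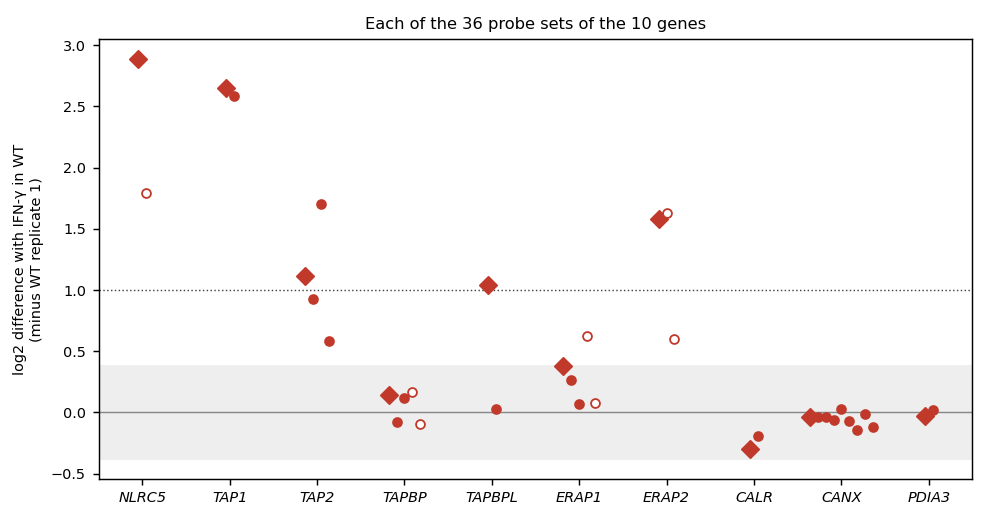
log2 difference between WT with IFN-gamma and WT replicate 1 (vertical axis) for each of the 36 probe sets, grouped by gene. Diamonds are the brightest probe set of a gene, open symbols have at least 1 of the 2 values in the background range, the grey band is 0.38 on either side of 0 and the dotted line is 2-fold. In all, 9 probe sets passed 2-fold; the probe sets of TAP1 lie together, while those of TAP2 run from 0.58 to 1.70 and those of TAPBPL from 0.03 to 1.04.

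CANX and PDIA3 varied little with the cytokines. All 9 CANX probe sets had IFN-gamma values in WT between -0.14 and 0.03, and the brightest ran from 9018 to 11002 over the 8 arrays. The brightest PDIA3 probe set ran from 4366 to 5394, with an IFN-gamma value of -0.03, and the second had 0.02. CALR read 251 in WT replicate 1, 204 in WT under IFN-gamma, and 269 and 274 in the JAK2 mutant without and with IFN-gamma. In the TNF-alpha experiment it read 200.4 in WT replicate 2, 208 with TNF-alpha, and 199.8 and 156 in the TNFRSF1A mutant without and with TNF-alpha. Its value of -0.30 with IFN-gamma stood at place 11206 of the 11529 genes. It turned to 0.03 against WT replicate 2, so no direction can be read from it. TAPBP, which holds the heavy chain at the transporter, read 1512 and 1674 in WT without and with IFN-gamma, and 1229 and 1193 in the JAK2 mutant.

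In JAK2 mutant cells, 0 of the 10 genes passed 2-fold with IFN-gamma, as did 0% of all compared genes. NLRC5 had the largest positive value of all 11529 genes there, 0.87. Between the 2 unstimulated WT arrays, which served different experiments, NLRC5 differed by about as much, -0.87. The next members in the mutant were TAP1 at place 70 with 0.42, ERAP2 at 110 and TAPBPL at 113, both with 0.38. The second NLRC5 probe set lay in the background range on both mutant arrays and read 25.2 and 29.7. The second TAP1 probe set had 0.50, going from 221 to 314. TAP2, which rose in WT, had -0.01 in the mutant on its brightest probe set and 0.29 on the one that gave 1.70 in WT. The remaining 5 genes lay between -0.06 and 0.04.

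Set against the WT response, the mutant's value was lower by 2.23 for TAP1, 2.01 for NLRC5, 1.20 for ERAP2, 1.12 for TAP2 and 0.66 for TAPBPL. In terms of intensity, the increase in the mutant was 10.9% of that in WT for NLRC5, 5.66% for TAP1, 14.0% for ERAP2 and 23.9% for TAPBPL. On its brightest probe set TAP2 had no increase in the mutant, a change of -1.67 intensity units against 476 in WT. The other TAP2 probe sets had log2 differences of 0.29, 0.09 and -0.12 in the mutant. The one with 0.29 went from 180 to 220 there, and from 175 to 570 in WT. These differences between the responses have no test, since each rests on 4 single arrays. The ratio of the 3' to the 5' actin probe set, a reading of RNA degradation, was 4.41 and 4.81 in WT and 5.74 and 6.47 in the mutant without and with IFN-gamma, and its part in these values was not tested.

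**Figure D3:**
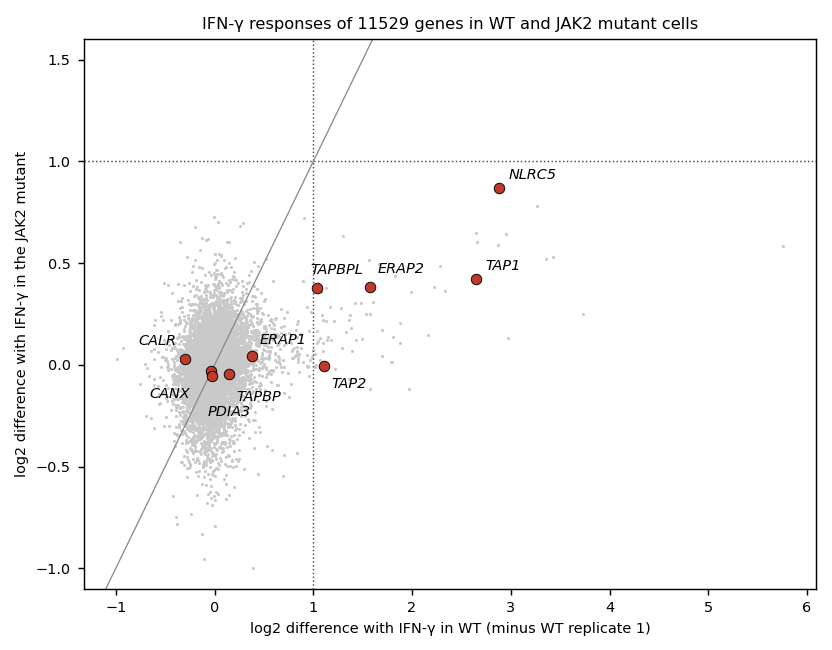
log2 difference with IFN-gamma in WT (horizontal axis) and in the JAK2 mutant (vertical axis) for the 11529 genes compared, each a grey point, with the 10 members in red. Dotted lines mark 2-fold, which no gene reached in the mutant, and the solid line marks equal responses. NLRC5 at 2.88 and 0.87 stands highest among all genes on the vertical axis, and the 5 members that rose in WT lie to the right and below the line of equal responses.

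TNF-alpha raised 0 of the 10 genes in WT cells, where 0.312% of all genes rose and 0.00867% fell. The largest values were 0.47 for TAP1 and 0.41 for TAPBP, the 2 members beyond the spread of 0.38. TAP1 read 1521 with TNF-alpha against 1096, and its other probe set gave 0.31. TAPBP read 1763 with TNF-alpha against 1331, its highest array of the 8. Of its 3 probe sets above the background range on all arrays the other 2 gave 0.28 and 0.19. A further TAPBP probe set, above that range on both of these WT arrays but not on all 8, gave 0.60, from 71.6 to 108. Against WT replicate 1, with which 1.4% of all genes rose and 0.711% fell, TAP1 had 0.62 and TAPBP 0.22. NLRC5, which led the members with IFN-gamma, had -0.11 with TNF-alpha, and ERAP2 and TAPBPL had 0.08 and -0.01. Against WT replicate 1 NLRC5 and TAP2 had -0.98 and -0.66, values that hold the difference between the WT arrays given below.

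In TNFRSF1A mutant cells given TNF-alpha, 0 of the 10 genes passed 2-fold, as did 0% of all genes. All 10 values were below 0, from -0.04 for TAP1 to -0.36 for CALR, with a median of -0.09 against -0.02 over all genes. CALR stood at place 11492 of 11529, and its second probe set gave -0.32. The WT response was above that of the mutant by 0.52 for TAP1, 0.48 for TAPBP and 0.41 for CALR on their brightest probe sets. The second probe sets gave 0.28 for TAP1 and 0.36 for CALR. The other 2 TAPBP probe sets above the background range on all arrays had 0.22 and 0.21 in the mutant, and so differed from WT by only 0.05 and -0.02. The TAPBP probe set with 0.60 in WT had 0.06 in the mutant, a difference of 0.54. Both of its mutant values lay in the background range. The 3' to 5' actin ratio was 3.27 and 4.81 in WT and 4.51 and 5.53 in the mutant without and with TNF-alpha, and its part in these values was not tested. The same ratio for GAPDH lay between 1.09 and 1.27 on all arrays of the study. TAPBP read 1457 and 1382 on the mutant's 2 arrays without and with TNF-alpha, and 0 of the 10 members lay beyond the spread of 0.38 there.

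**Figure D4:**
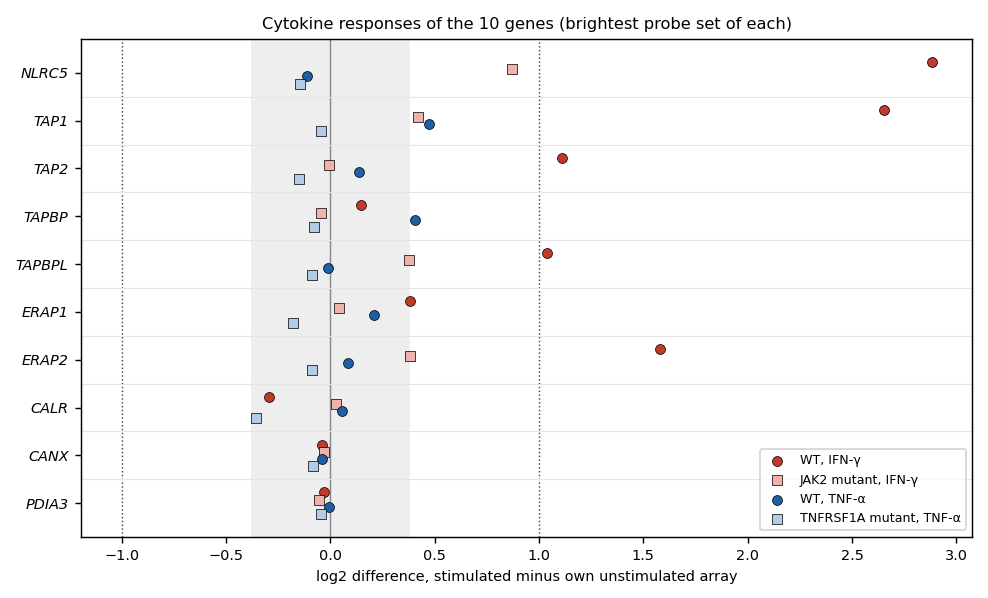
log2 difference between stimulated cells and their own unstimulated array (horizontal axis) for the 10 genes, with IFN-gamma in red and TNF-alpha in blue, WT as dark circles and the mutants as pale squares. The grey band is 0.38 on either side of 0, the SD between the 2 WT arrays over genes, and dotted lines mark 2-fold. With TNF-alpha no member passes 2-fold and only TAP1 at 0.47 and TAPBP at 0.41 in WT leave the band.

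Before any cytokine, 0 of the 10 genes differed 2-fold between the JAK2 mutant and WT replicate 1, where 0.226% of all genes were higher and 1.91% lower. Their values ran from -0.30 for TAPBP to 0.10 for CALR, with 8 of the 10 below 0 and a median of -0.18, against 0.03 over all genes. These values share WT replicate 1 with the IFN-gamma response of WT. The 9 CANX probe sets lay between -0.40 and -0.14, all below 0. With WT replicate 2 as the control, where 2.9% of all genes were higher and 3.65% lower, 0 members passed 2-fold, and NLRC5 had 0.61, TAP2 0.82, CALR 0.43 and TAPBPL -0.50.

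In the unstimulated TNFRSF1A mutant 0 of the 10 genes differed 2-fold from WT replicate 2, where 0.373% of all genes were higher and 0.607% lower. Values ran from -0.23 for TAP1 to 0.32 for NLRC5, with a median of 0.02 against 0.04 over all genes. Against WT replicate 1, where 0.841% of all genes were higher and 0.859% lower, 0 members passed 2-fold, but NLRC5 turned to -0.54 and TAP2 had -0.88.

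The 2 unstimulated WT arrays themselves separated NLRC5 and TAP2 from the other members. NLRC5 was lower in replicate 2 by -0.87 (second probe set -0.55) and TAP2 by -0.80, while the other 8 genes lay between -0.32 and 0.25 on their brightest probe sets. Some of their other probe sets went further, with up to 0.47 for CANX and -0.40 for the second of PDIA3. The 4 TAP2 probe sets had -0.80, -0.74, -0.41 and -0.21. No member passed 2-fold, and over all genes 0.954% were higher and 1.03% lower. NLRC5 and TAP2 were thus the members whose baseline differences depended most on the choice of WT array, and the labels name no difference between the 2 arrays beyond the experiment each served.

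**Figure D5:**
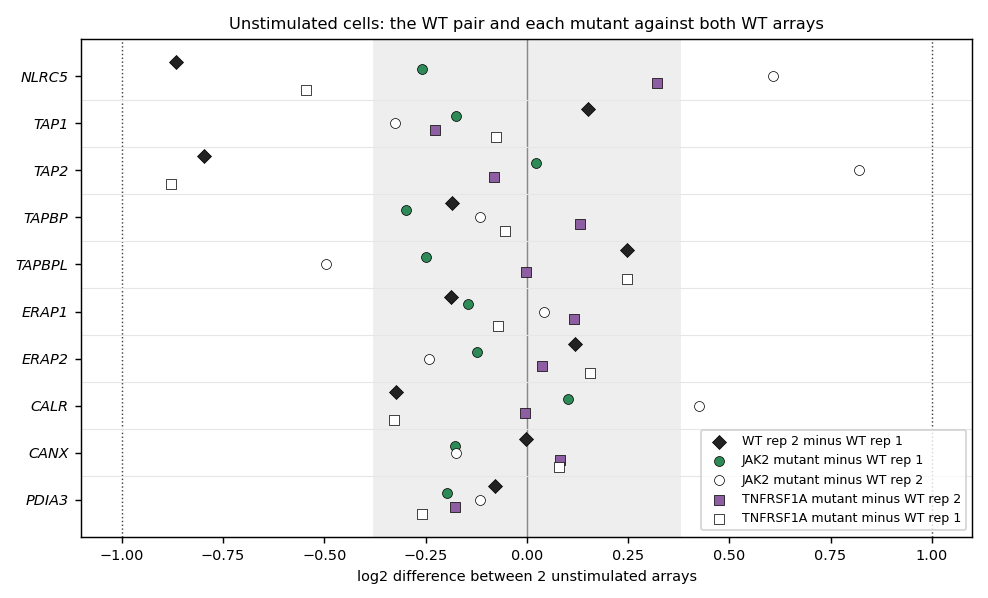
log2 difference between 2 unstimulated arrays (horizontal axis) for the 10 genes: the WT pair as black diamonds, and each mutant against the WT array of its own experiment (filled) and against the other WT array (open). The grey band is 0.38 on either side of 0 and dotted lines mark 2-fold. NLRC5 and TAP2 leave the band in the WT pair, at -0.87 and -0.80, and in every value set against the WT array of the other experiment.

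Other genes of the pathway moved in part with the members. Of the 5 genes of the immunoproteasome and its activator PA28, PSMB9, which shares the region upstream of TAP1, rose with IFN-gamma by 1.28, and the others had 0.85 for PSMB8, 0.81 for PSMB10, 0.69 for PSME2 and 0.21 for PSME1; the median was 0.81. Of the 6 class I heavy chain and B2M genes compared, HLA-E rose by 1.58, HLA-F had 0.36 with its unstimulated value in the background range (-0.01 with that value set to the range's upper edge), HLA-C had 0.24, and the median was 0.20. Of 10 factors at class I promoters and upstream of them, IRF1 rose by 2.87 and the class II transactivator CIITA by 1.88; IRF2 had 0.84, while the RFX subunits RFX5, RFXAP and RFXANK, through which NLRC5 acts, had 0.17, 0.09 and 0.09. Of 6 other peptidases of class I ligands, the leucine aminopeptidase gene LAP3 rose by 1.36, the others lay between -0.19 and 0.17, and the median was -0.11. The median of all genes was -0.02. Against WT replicate 2, with which 1.66% of all genes rose and 0.694% fell, RFX5, RFXAP and RFXANK had 0.97, -0.18 and 0.64. With that control PSME2 and PSMB10 also passed 2-fold, at 1.38 and 1.04, and HLA-C turned to -0.15. PSMB9, HLA-E, IRF1, CIITA and LAP3 stayed past 2-fold.

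The general folding genes of the endoplasmic reticulum behaved like CANX and PDIA3. Of 15 such genes, 0 rose and 0 fell with IFN-gamma in WT, with values from -0.18 for the glycoprotein sensor UGGT1 to 0.15 for DNAJB11 and a median of -0.01. With TNF-alpha 0 of 15 passed 2-fold either, with a median of -0.08. Of the lists named above, 0 genes passed 2-fold with TNF-alpha in WT; RFX5 had 0.60, which turned to -0.20 against WT replicate 1, while CREB1 and IRF1 had 0.47 each, and 0.46 and 0.61 against replicate 1. In the JAK2 mutant with IFN-gamma 0 passed it, and IRF1 had 0.59 and PSMB9 0.28. Of 6 genes for the receptors of both cytokines and their kinases, 0 passed 2-fold in WT with either cytokine, with medians of 0.00 for IFN-gamma and -0.01 for TNF-alpha; JAK2 had 0.54 with IFN-gamma and IFNGR2 0.68 with TNF-alpha. The 8 housekeeping genes compared had a median of 0.00 with IFN-gamma in WT, with the highest value 0.17 for TBP.

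Genes with the most similar pattern were found by the root mean square difference between log2 profiles over the 8 arrays, after the mean of each gene was taken off. TAP1 was nearest to IRF1, at 0.11, followed by XAF1 at 0.25, APOL2 at 0.26, PLAAT4 at 0.27 and PARP9 at 0.28, where TAP1 itself varied by 0.88 about its mean. NLRC5 was nearest to PARP9 at 0.41, then IFI35, the pseudogene FCGR1BP, IRF1 and TAP1 at 0.55 to 0.62, and TAP2 came at place 6 with 0.63. ERAP2 was nearest to SLC37A1 at 0.11, then IRF9, TMEM140, BTN3A3 and DTX3L at 0.13 to 0.15, with TAPBPL at place 18. CALR, which varied by only 0.26 about its mean, was nearest to ELL3 at 0.06, followed by SLC35F2, HSPA4L, RINT1 and PIERCE1 at up to 0.09. All genes share the same 8 arrays, so these values describe the arrays and carry no test.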

How the data were processed

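RNA was labelled with biotin and hybridised to 1 array per sample, per the labels' protocols. The deposited values are the authors' intensity of each probe set, for which the submitters' processing notes name RMA and Expression Console 1.1; that they are on a linear scale was read from the values, and the genome build is not given in the sources used here. RMA makes the arrays' distributions equal at the level of single probes, and those of the probe set values only nearly so. A shift of most genes 1 way would therefore not be seen. From these values log2 was taken without a pseudocount. Of 49395 probe sets, 44994 had 1 gene in the platform's annotation, 1832 had several and 2569 were not listed; old symbols were replaced by way of gene identifiers (RefSeq, GRCh38.p14). Each gene was represented by the brightest probe set, by mean log2, among those naming it alone; genes with a highest log2 of at least 6 were compared. The background range ends at the upper quartile of 23 background probe sets.

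The members and lists were chosen with earlier results of these data known. Text names all members, list genes past 2-fold or else the 2 with the largest absolute values in WT, and the 5 nearest profiles of NLRC5, TAP1, ERAP2 and CALR; other list genes, such as the RFX subunits, IRF2 and HLA-C, were named after their values were seen. Promoter motifs were chosen after the values were seen. Alternatives were other thresholds, level filters, normalizations, probe set rules and WT controls, and limma 3.58.1 on 7 conditions with 1 residual degree of freedom. Scripts were tested on simulated data. 1 searched motif is not reported here.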

Additional observations from a re-analysis of the deposited data

Results flagged for a closer look

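For 9 combinations of gene and cytokine the value was above 0 in WT and below 0 in the mutant, or the reverse, with 1 array on each side, and none of these differences was tested. With IFN-gamma, WT minus JAK2 mutant was 1.12 for TAP2, 0.19 for TAPBP and -0.32 for CALR. TAP2 rose in WT, whereas for TAPBP and CALR each value lay within the spread of 0.38 between the WT arrays. With TNF-alpha, WT minus TNFRSF1A mutant was 0.52 for TAP1, 0.48 for TAPBP, 0.41 for CALR, 0.39 for ERAP1, 0.29 for TAP2 and 0.17 for ERAP2. Of these, TAP1 and TAPBP in WT had single values beyond 0.38. These are the brightest probe sets. With TNF-alpha the others above the background range on all arrays gave 0.05 and -0.02 for TAPBP, both without a change of sign between WT and mutant, and -0.08 and 0.20 for ERAP1. The second TAP1 probe set, at 0.31 in WT and 0.03 in the mutant, did not change sign. The second CALR probe set did (0.04 and -0.32), but not with IFN-gamma (-0.19 and -0.15). With IFN-gamma a further TAP2 probe set changed sign (0.58 and -0.12), but those with 0.93 and 0.09 and with 1.70 and 0.29 did not. TAP2 with TNF-alpha and TAPBP with IFN-gamma were also mixed.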

How the results depend on the processing

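The count of 5 members raised by IFN-gamma in WT was 2 (NLRC5 and TAP1) at 3-fold, and 0 with limma, where 5 of the 10 had an unadjusted p under 0.05 and the lowest Benjamini-Hochberg adjusted p was 0.14, for TAP1; limma called 1 of 11529 genes there, and it assumes that every single array varies as the WT pair does. A rule added after the data were seen, that every probe set above the background range on at least 1 array must pass, left 3: NLRC5, TAP1 and ERAP2. With WT replicate 1 left out, so that replicate 2 was the control, the count was 4, without TAPBPL. At 1.5-fold the JAK2 mutant had 1 raised member, NLRC5, and the WT pair had 2 lower ones, NLRC5 and TAP2. The median over members of WT minus mutant response was 0.50 for IFN-gamma and 0.32 with the mean of probe sets; for TNF-alpha it was 0.23, 0.12 with the mean of probe sets and 0.14 without WT replicate 2, all below the spread of 0.38. As the mean of its probe sets, TAPBPL had 0.53 and NLRC5 2.34 with IFN-gamma. The other counts of 0 stayed within these alternatives, limma included, which had 0 members at an unadjusted p under 0.05 outside the IFN-gamma response of WT. No paired analysis was possible because the groups compared share fewer than 2 replicate numbers. Precision is limited by how few arrays there are, and 4 of the 36 probe sets lay in the background range on all arrays.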
